A study of Mus musculus with 3 samples.

Results

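A TCR β chain (TRB) is called public when several animals make the same one. Cells with a public TRB were defined by a productive TRB that occurred with the same V gene, J gene and CDR3 amino acids in at least 2 of the 3 scTCR-Seq libraries, with the contig name TRBV12-2+TRBV13-2 counted as TRBV13-2. They were 206 of 6256 cells with a productive TRB (3.29%) and carried 50 of the 3736 different TRBs. Of the 50, 49 were in 2 libraries and 1 was in all 3.

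For scTCR-Seq in droplets, CD45+ cells were sorted from the sciatic nerves of neuropathic NOD.AireGW/+ mice. These are NOD mice with a heterozygous, partial loss-of-function allele of Aire, the gene that lets the thymus display proteins of other tissues to developing T cells. Replicate 1 and replicate 2 were 1 mouse each and replicate 3 pooled 2 mice. All libraries were of this 1 condition, so no control nerves were compared, and an identical TRB inside replicate 3 can come from either of its mice. The cells were taken as T cells from their TCR alone, because gene expression was not analysed here and CD4+ and CD8+ cells were not separated.

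A TRB is built in the thymus by joining a V, a D and a J segment, with bases trimmed from the segment ends and random bases added between them. The CDR3 is the loop that spans this junction, from the conserved cysteine of V to the phenylalanine of J, and it contributes most of the contact with peptide. The paired α chain (TRA) is built later, from V and J segments only. Different nucleotide sequences can encode the same CDR3, so the nucleotides show whether libraries made a public TRB with the same or with different sequences. The libraries are of different mice, so the same nucleotide sequence in several of them does not show a single rearrangement.

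Each public TRB is named here by its V gene, its J gene and its CDR3 length in amino acids (aa), with a letter where several share all of these. The nucleotide CDR3s below show 3 ways in which a TRB was public, and capitals mark every base at which the sequences of 1 TRB differed. The TRB found in all 3 libraries, TRBV13-2-TRBJ2-5 12 aa (a), is shown first because it had the most encoding sequences, 7 in 9 cells.
sequence 1, 2 cells of replicate 2: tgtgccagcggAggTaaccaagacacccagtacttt
sequence 2, 2 cells of replicate 2: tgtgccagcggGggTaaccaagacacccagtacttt
sequence 3, 1 cell of replicate 2: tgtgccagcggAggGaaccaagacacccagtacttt
sequence 4, 1 cell of replicate 3: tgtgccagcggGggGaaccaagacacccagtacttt
sequence 5, 1 cell of replicate 1: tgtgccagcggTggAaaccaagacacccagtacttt
sequence 6, 1 cell of replicate 2: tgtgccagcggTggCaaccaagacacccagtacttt
sequence 7, 1 cell of replicate 2: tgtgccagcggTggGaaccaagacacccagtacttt
germline end of TRBV13-2 (gene at chr6:41121396-41121832, + strand, GRCm38): tgtgccagcggtgatg
germline start of TRBJ2-5 (gene at chr6:41543453-41543501, + strand, GRCm38): aaccaagacacccagtacttt

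The 7 sequences differed at 2 positions only, bases 12 and 15 of the CDR3, and both were the third base of a codon. No sequence of this TRB was in more than 1 library. All 21 bases of TRBJ2-5 up to its phenylalanine codon were intact in each sequence, 11 to 13 bases matched the V end, and 0 to 2 bases matched no germline segment.

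The second set is the public TRB of most cells, TRBV29-TRBJ1-3 15 aa, with the TRA of its cells, which joined TRAV7-3 to TRAJ32. Each library held 1 sequence of each chain, and the libraries differed at 1 base in the TRB and at 1 base in the TRA.
TRB, 11 cells of replicate 2: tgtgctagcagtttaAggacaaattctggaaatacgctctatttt
TRB, 7 cells of replicate 1: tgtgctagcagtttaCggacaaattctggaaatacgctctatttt
TRA, 10 cells of replicate 2: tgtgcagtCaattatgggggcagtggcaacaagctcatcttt
TRA, 7 cells of replicate 1: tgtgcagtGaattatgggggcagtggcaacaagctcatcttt

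The third way was to keep 1 nucleotide sequence in both libraries. TRBV2-TRBJ1-6 14 aa is shown because all of its bases matched germline segments, a choice made after its values were seen.
TRBV2-TRBJ1-6 14 aa, 3 cells of replicate 1 and 2 of replicate 2: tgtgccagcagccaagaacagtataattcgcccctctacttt

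Replicate 1 had 94 cells with a public TRB among 2253 (4.17%, interval 3.38% to 5.08%), replicate 2 had 89 of 3361 (2.65%, 2.13% to 3.25%) and replicate 3 had 23 of 642 (3.58%, 2.28% to 5.33%). The share was 3.47% ± 0.769 (SD, n = 3 libraries). The intervals are exact Clopper-Pearson 95% intervals, which cover only counting error and take each cell as an independent draw. Counted by TRB, 44 of 1272, 41 of 1983 and 16 of 532 were public. The libraries held 34630, 41338 and 5142 UMIs on their contigs, and the median cell had 7, 6 and 4 TRB UMIs, so replicate 3 was the shallowest.

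Replicates 1 and 2 shared 35 public TRBs, replicates 1 and 3 shared 10, and replicates 2 and 3 shared 7. The 35 were 2.75% of the TRBs of replicate 1 and 1.77% of those of replicate 2. Because larger libraries offer more pairs of TRBs, the numbers were also divided by the number of TRB pairs between the libraries, which gave, per 1000000 pairs, 13.9, 14.8 and 6.64. On that scale replicates 1 and 3 shared as many as replicates 1 and 2, although the libraries of the latter were larger. Of 6624 different cell barcodes, 10 occurred in more than 1 library, none of them on a cell with a public TRB.

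**Figure D1:**
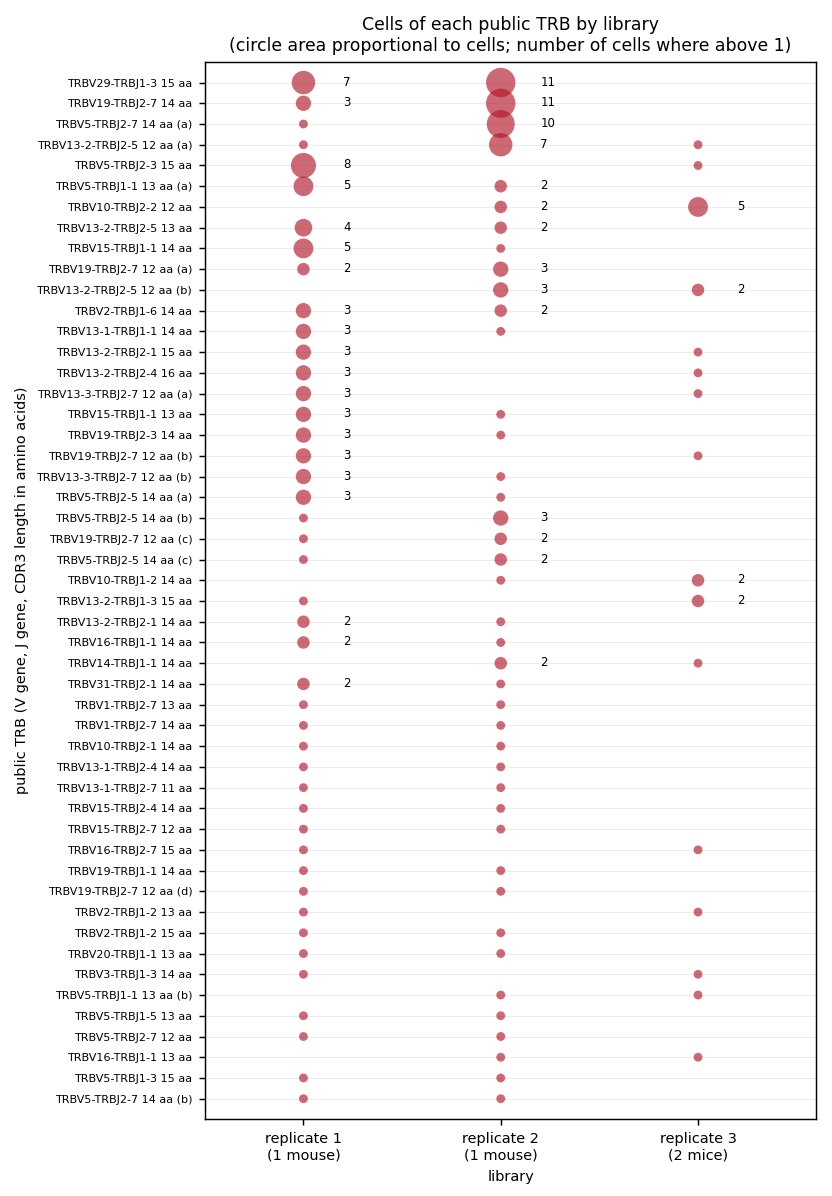
Cells of each of the 50 public TRBs (vertical axis) in each library (horizontal axis). The area of a circle is proportional to the number of cells, which is printed where it is above 1, and an empty place means that no cell was found. The largest circles are TRBV29-TRBJ1-3 15 aa with 7 and 11 cells and TRBV19-TRBJ2-7 14 aa with 3 and 11 cells, and only TRBV13-2-TRBJ2-5 12 aa (a) has a circle in every column.

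Most public TRBs were encoded by different nucleotide sequences in different libraries. In all, 100 nucleotide sequences encoded the 50 TRBs. Of the TRBs, 11 had 1 sequence, 33 had 2, 4 had 3, 1 had 4 and 1 had 7. Only 13 of the 50 (26%) had a nucleotide sequence in more than 1 library, and the other 37 (74%) had none. Among the 37, the closest sequences of different libraries differed at 1 base in 17 TRBs, at 2 bases in 11, at 3 bases in 5 and at 4 bases in 4. The sequences of 1 TRB varied at 81 positions in all, of which 61 (75.3%) were the third base of a codon, where a change is most often silent.

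TRBV19-TRBJ2-7 12 aa (a) came next in number of sequences, with 4 in 5 cells. It is 1 of 4 public TRBs, (a) to (d), of the same V gene, J gene and length. Its sequences are printed with 1 of each of the other 3, since these TRBs return below with their TRAs. Capitals mark only differences within the same TRB.
(a), 2 cells of replicate 1: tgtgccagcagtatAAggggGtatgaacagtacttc
(a), 1 cell of replicate 2: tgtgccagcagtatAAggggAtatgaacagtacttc
(a), 1 cell of replicate 2: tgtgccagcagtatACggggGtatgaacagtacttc
(a), 1 cell of replicate 2: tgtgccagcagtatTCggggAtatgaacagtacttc
(b), 3 cells of replicate 1: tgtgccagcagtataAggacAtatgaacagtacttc
(c), 1 cell of replicate 1: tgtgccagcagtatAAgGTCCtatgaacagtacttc
(d), 1 cell of replicate 1: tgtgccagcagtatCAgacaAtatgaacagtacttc
germline end of TRBV19 (gene at chr6:41178375-41179048, + strand, GRCm38): tgtgccagcagtatag
germline TRBD1 (chr6:41533201-41533212, + strand, GRCm38): gggacagggggc
germline start of TRBJ2-7 (gene at chr6:41543810-41543856, + strand, GRCm38): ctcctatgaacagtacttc

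TRBs (a) to (d) kept 14 or 15 bases of the V end and 15 to 19 of the 19 bases of TRBJ2-7, so their differences lay in bases 15 to 21. The other TRBs with at least 3 sequences were TRBV5-TRBJ1-1 13 aa (a) with 3 in 7 cells, TRBV13-2-TRBJ2-5 12 aa (b) with 3 in 5 cells, and TRBV19-TRBJ2-7 12 aa (c) and TRBV5-TRBJ2-5 14 aa (c) with 3 in 3 cells each. The last of these was outside the rule for named TRBs and was added after its values were seen.

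Several sequences for 1 TRB were also seen inside a library. Among TRBs of at least 2 cells in replicate 1, 1 of 20 public TRBs (5%, interval 0.127% to 24.9%) and 4 of 253 other TRBs (1.58%, 0.432% to 4.00%) had more than 1 nucleotide sequence. In replicate 2 these were 5 of 14 (35.7%, 12.8% to 64.9%) and 6 of 440 (1.36%, 0.502% to 2.94%). In replicate 3 they were 2 of 4 (50%, 6.76% to 93.2%) and 0 of 66, where the interval ends at 5.44%. The share was higher in public TRBs in 3 of 3 libraries, by 29.3 ± 23.7 percentage points (SD, n = 3). An exact two-sided sign-flip permutation test over the libraries gave p = 0.25 (adjusted p = 0.375 over 6 tests), and 0.25 is the smallest p that 3 libraries allow. With the V names as deposited the difference was 14.6 ± 23.6 points (exact permutation test, p = 0.5). The number of encoding sequences is bound to the CDR3 that the rule used, so this test is not independent of the rule.

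Public TRBs were spread over many V genes, with TRBV5 first. TRBV5 supplied 11 of the 50 (22%, interval 11.5% to 36.0%) and 9.96% of the 3686 other TRBs. TRBV13-2 supplied 7 (14%, against 13.7%), TRBV19 7 (14%, against 8.27%), TRBV15 4 (8%, against 4.02%) and TRBV10 3 (6%, against 3.55%). By the ratio of the public to the other share, TRBV5 (2.21), TRBV15 (1.99), TRBV19 (1.69), TRBV10 (1.69) and TRBV2 (1.37) were highest. In TRBV5 the public share was above the other share in each library, at 22.7% against 12.5%, 24.4% against 9.22% and 12.5% against 6.59%. At the low end, TRBV12-1, TRBV12-2, TRBV17 and TRBV26 had no public TRB and TRBV31 had 1 (ratio 0.374). The exact interval of 0 of 50 public TRBs reaches 7.11%, so the absence of these rare genes was not distinguishable from their shares of 0.733% to 2.14% in other TRBs. V and J genes and CDR3s were part of the rule that chose the TRBs, so these values are descriptions and were not tested.

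Among J genes, TRBJ2-7 supplied 15 (30%, against 19.7%) and TRBJ1-1 10 (20%, against 10.3%). TRBJ2-5 supplied 6 (12%, against 12.6%). TRBJ1-3 (8%, against 4.34%) and TRBJ2-1 (8%, against 11.6%) supplied 4 each, TRBJ1-2 (6%, against 4.99%) and TRBJ2-4 (6%, against 6.70%) supplied 3 each, and TRBJ2-3 supplied 2 (4%, against 10.0%). TRBJ1-5, TRBJ1-6 and TRBJ2-2 supplied 1 each (2%, against 2.66%, 3.17% and 5.15%). TRBJ1-4 had none among the public TRBs and 321 of the other TRBs (8.71%), where the exact interval of 0 of 50 reaches 7.11%. J genes were part of the rule, so this too is a description and was not tested. Both J clusters took part, with 38% of public and 34.1% of other TRBs in the TRBJ1 cluster.

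**Figure D2:**
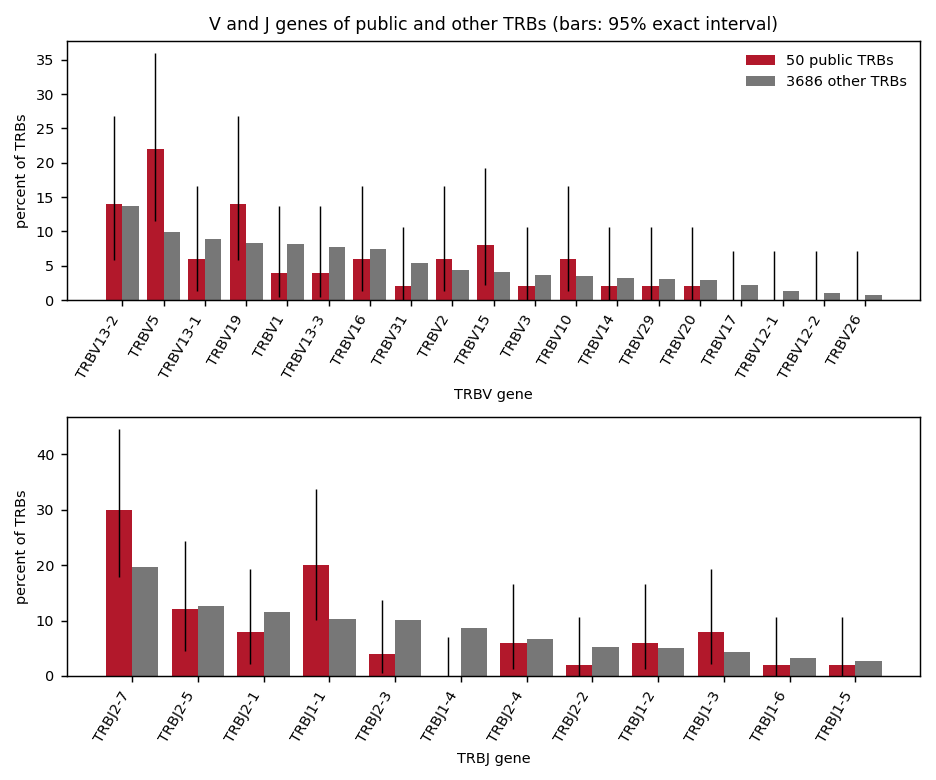
Share of the 50 public TRBs (red) and of the 3686 other TRBs (grey) with each TRBV gene (upper panel, genes with at least 20 TRBs) and each TRBJ gene (lower panel), in percent of TRBs. Black lines are exact 95% intervals of the public shares. TRBV5 reaches 22% against 9.96% and TRBJ2-7 30% against 19.7%, and TRBJ1-4 has no red bar.

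Public CDR3s were somewhat shorter than the others and covered a narrower range. Their mean length was 13.5 aa (SD 1.11, range 11 to 16) over the 50 TRBs, and that of other TRBs was 14.0 aa (SD 1.44, range 5 to 19). The difference was -0.455 aa in replicate 1, -0.592 aa in replicate 2 and -0.451 aa in replicate 3. Public TRBs were more often 12 aa long (22%, against 10.3% of others) and 14 aa long (42%, against 30.1%). They were less often 15 aa (14%, against 23.3%) and 16 aa long (2%, against 9.98%), and none was longer, against 110 of the other TRBs (2.98%).

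Public junctions also lay closer to the germline of the reference genome, which is not that of NOD mice. Each nucleotide CDR3 was divided into the bases that match the V end, the J start, the longest D match of at least 3 bases, and the rest, called unmatched bases. In replicate 1, 44 public rearrangements had a mean of 2.41 unmatched bases (SD 1.62) and 1176 others had 3.63 (SD 2.33). In replicate 2 the means were 2.19 (SD 1.53, n = 47) and 3.52 (SD 2.33, n = 1887), and in replicate 3 they were 2.00 (SD 1.67, n = 16) and 3.89 (SD 2.35, n = 498). The difference was -1.48 ± 0.356 bases (SD, n = 3 libraries). No public junction had more than 6 unmatched bases, while others had up to 15. More than 5 were found in 4.21% of 95 public and 19.6% of 3561 other rearrangements, and none in 11.6% and 7.39%. The 12 matched nucleotide sequences found in 2 libraries had a mean of 1.92 unmatched bases and a median of 2.5. The 83 public ones found in 1 library had a mean of 2.35 and a median of 2, so the order depended on the measure.

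Public rearrangements had longer V matches and shorter D matches. D was sought only in the bases left after V and J were matched, so its length depends on theirs. Whether less of D was kept was not tested. Public rearrangements matched the V end over 14.9, 14.3 and 15.0 bases on average in the 3 libraries, against 13.9, 13.8 and 13.6 for others. Their D match was 5.09, 4.55 and 4.94 bases long, against 6.44, 6.33 and 6.48. The J match was nearly the same, at 18.2, 18.4 and 18.9 bases against 18.1, 18.2 and 18.0. Length and junction follow from the CDR3 that the rule used, so these differences were not tested either.

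**Figure D3:**
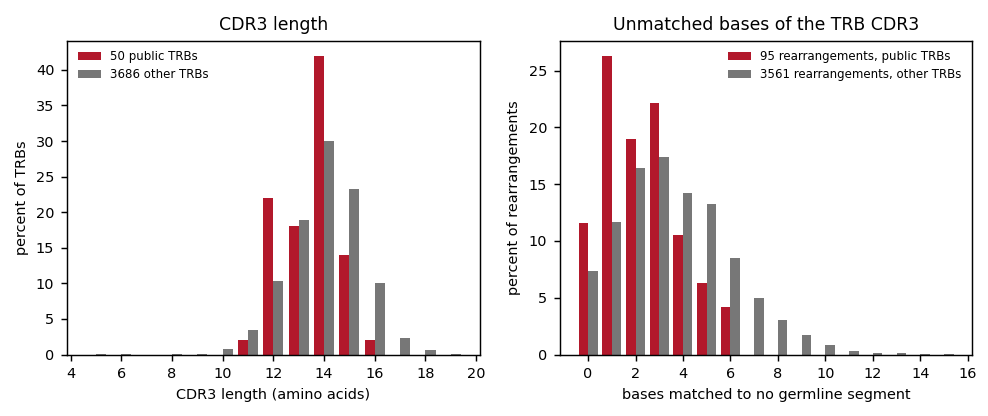
Left panel, CDR3 length in amino acids (horizontal axis) of the 50 public TRBs (red) and the 3686 other TRBs (grey), in percent of TRBs. Right panel, bases that match no germline segment in 95 public and 3561 other rearrangements, in percent of rearrangements. Red bars end at 16 aa and at 6 unmatched bases, and grey bars reach 19 aa and 15 bases.

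Public TRBs were more often found in several cells of a library than other TRBs, but beyond counting error in replicate 1 only. In replicate 1, 20 of 44 public TRBs had at least 2 cells (45.5%, interval 30.4% to 61.2%) and 253 of 1228 other TRBs did (20.6%, 18.4% to 23.0%). In replicate 2 these were 14 of 41 (34.1%, 20.1% to 50.6%) and 440 of 1942 (22.7%, 20.8% to 24.6%), and in replicate 3 they were 4 of 16 (25%, 7.27% to 52.4%) and 66 of 516 (12.8%, 10.0% to 16%). Counted by TRB, the public share was higher in 3 of 3 libraries, and the intervals were apart only in replicate 1. The difference was 16.2 ± 7.52 percentage points (SD, n = 3), with p = 0.25 in the exact permutation test (adjusted p = 0.375). A count by TRB adds up cells of separate rearrangements. Counted by nucleotide rearrangement, a choice made after seeing the data, the shares of at least 2 cells were 44.4% of 45 public and 20.5% of 1232 other rearrangements in replicate 1. They were 24% of 50 and 22.6% of 1949 in replicate 2, and for replicate 3 they were 11.1% of 18 and 12.8% of 516. By this count the shares were close in replicates 2 and 3, and only in replicate 1 were they apart, where the intervals did not overlap (lower bound 29.6% for public, upper bound 22.8% for other), and the difference was 7.89 ± 14.0 percentage points (exact permutation test, p = 0.75). A TRB with many cells is more easily found again in another library, so the rule itself favours expanded TRBs.

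Of the 50 public TRBs, 20 had 1 cell in each of their libraries, 22 had more than 1 cell in 1 library only, and 8 had more than 1 cell in 2 libraries. The most cells of a public TRB in a library were 11, and those of another TRB were 365. By the size classes small (2 to 5 cells), medium (6 to 20 cells) and large (over 20 cells), replicate 1 had 18 small (40.9%) and 2 medium (4.55%) public TRBs, where 17.2% and 3.09% of other TRBs were small and medium. Replicate 2 had 10 small (24.4%) and 4 medium (9.76%), against 18.7% and 3.55% of others, and replicate 3 had 4 small (25%, against 12.2%) and 0 medium (against 0.581%). Large TRBs were rare in any case, with 4 of the other TRBs in replicate 1 (0.326%) and 8 in replicate 2 (0.412%), so that 0 of 44 and 0 of 41 public TRBs, whose intervals reach 8.04% and 8.60%, could not be told apart from these shares.

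The 5 public TRBs of most cells differed in how evenly libraries shared them. TRBV29-TRBJ1-3 15 aa had 7 cells in replicate 1 and 11 in replicate 2, and TRBV19-TRBJ2-7 14 aa had 3 and 11. TRBV5-TRBJ2-7 14 aa (a) had 1 and 10. TRBV13-2-TRBJ2-5 12 aa (a) had 1, 7 and 1 cells in replicates 1, 2 and 3. TRBV5-TRBJ2-3 15 aa had 8 cells in replicate 1 and 1 in replicate 3. Each had most of its cells in 1 library, and only the TRBV29 TRB had more than 5 cells in another.

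Depth of the chains was close between the sets. The median TRB UMIs of a cell were 7 and 7 in replicate 1, 5 and 6 in replicate 2 and 4 and 4 in replicate 3, public value first (difference -0.333 ± 0.577, exact permutation test, p = 1). For 4 of the 50 TRBs, a library contributed only 1 cell with 1 UMI, so their public status rested on that UMI. They were TRBV2-TRBJ1-2 13 aa, TRBV2-TRBJ1-2 15 aa, TRBV5-TRBJ1-1 13 aa (b) and TRBV19-TRBJ2-7 12 aa (c), the third of which is named after its values were seen. More than 1 TRB was found in 19 of the 206 cells (9.22%) and in 322 of 6050 other cells (5.32%), and a cell with several TRBs has more chances to carry a public one.

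A productive TRA was missing less often beside a public TRB. In replicate 1 it was missing from 12.8% of 94 public and 17.3% of 2159 other cells. In replicate 2 these shares were 12.4% of 89 and 22.2% of 3272 cells, and in replicate 3 they were 17.4% of 23 and 38.8% of 619. The difference was -11.9 ± 8.63 percentage points (SD, n = 3) and was below 0 in 3 of 3 libraries (exact permutation test, p = 0.25, adjusted p = 0.375). The intervals overlapped in all 3 libraries, by the least in replicate 2 (6.33% to 21% against 20.7% to 23.6%). In all, 179 cells with a public TRB had a TRA.

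The TRAs beside public TRBs were themselves often shared between libraries. A TRA was counted as shared when the same V gene, J gene and CDR3 amino acids occurred in at least 2 libraries. The rule for TRBs did not use the TRA. It does place in the public group every cell whose TRB and TRA recur together in another library, so the comparison is not independent of the rule. Shared TRAs were found in 19 of 82 public cells with a TRA in replicate 1 (23.2%, interval 14.6% to 33.8%) and in 126 of 1786 other cells (7.05%, 5.91% to 8.34%). In replicate 2 they were found in 33 of 78 (42.3%, 31.2% to 54.0%) and 140 of 2547 (5.50%, 4.64% to 6.45%), and in replicate 3 in 10 of 19 (52.6%, 28.9% to 75.6%) and 28 of 379 (7.39%, 4.97% to 10.5%). The intervals did not overlap in any library. The difference was 32.7 ± 15.0 percentage points (SD, n = 3), higher in 3 of 3 libraries, with p = 0.25 in the exact permutation test (adjusted p = 0.375). With public TRBs defined by their nucleotides it was 17.9 points.

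Without TRBV29-TRBJ1-3 15 aa, the TRB of most cells, the public share in replicate 1 was 16% of 75 cells, that in replicate 2 was 33.8% of 68, and replicate 3 stayed at 52.6% of 19. Counted by TRB, so that large clones weigh no more than small ones, 10 of 39 public TRBs (25.6%), 9 of 33 (27.3%) and 8 of 15 (53.3%) had a cell with a shared TRA, against 6.85%, 6.36% and 7.27% of other TRBs. In replicate 1 the 10 were the same 10 TRBs that kept their TRA with its V gene name, described below. Some of those TRBs are also among the 9 and the 8, so shared TRAs and kept TRAs are not separate results.

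**Figure D4:**
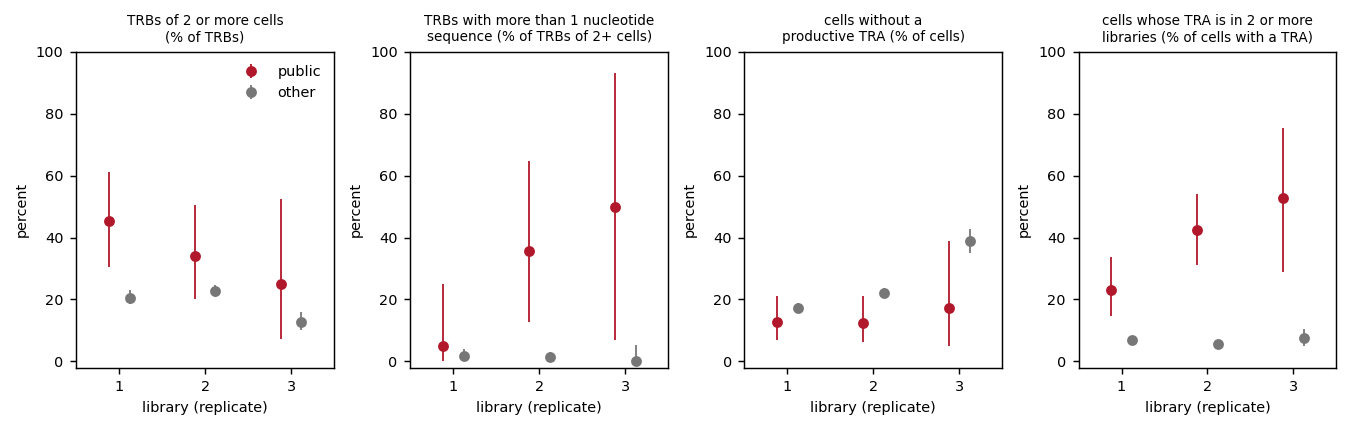
Measures that the choice of public TRBs did not use directly, by library (horizontal axis), in percent, for public TRBs or their cells (red) and others (grey). The rule still bears on expansion, several nucleotide sequences and shared TRAs, as stated in the text. Bars are exact 95% intervals. Red points are higher for TRBs of 2 or more cells (cells of separate rearrangements added up), several nucleotide sequences and shared TRAs and lower for a missing TRA in all 3 libraries, with shared TRAs at 23.2%, 42.3% and 52.6% against 7.05%, 5.50% and 7.39%.

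For 36 of the 50 public TRBs, cells of at least 2 libraries had a TRA, so the partners could be compared between mice. In 12 of the 36 (33.3%) the same TRA CDR3 returned in another library. In 5 more the closest TRAs had the same V and J genes and a CDR3 of the same length with 1 different residue, and in 3 more they had the same J gene. In the other 16 (44.4%) no partner TRA of different libraries had the same J gene. Over all 77 pairs of partner TRAs of a public TRB from different libraries, 21 (27.3%) had the same V and J genes, 30 (39.0%) the same V gene and 28 (36.4%) the same J gene. Over all 2833793 pairs of TRAs from different libraries, these shares were 0.102%, 2.72% and 2.96%. Pairs of the same TRB are not independent, and these counts were made after the partner TRAs had been seen.

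Of the 12 TRBs that kept a TRA CDR3, 10 kept its V gene name too. TRBV29-TRBJ1-3 15 aa, printed above, kept TRAV7-3 with TRAJ32 in 7 cells of replicate 1 and 10 of replicate 2, and no other TRA was found in its 17 cells with a TRA. TRBV13-3-TRBJ2-7 12 aa (a) kept TRAV21-DV12 with TRAJ57 in 3 cells of replicate 1 and 1 of replicate 3. TRBV15-TRBJ1-1 14 aa kept TRAV5-4 with TRAJ43 in 2 cells of replicate 1 and 1 of replicate 2, with the same TRB nucleotides in both. TRBV13-2-TRBJ1-3 15 aa kept TRAV5-1 with TRAJ23 in 1 cell of replicate 1 and 2 of replicate 3.

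Another 5 kept their TRA in 1 cell of each library. TRBV2-TRBJ1-2 15 aa kept TRAV16N with TRAJ18, TRBV2-TRBJ1-2 13 aa kept TRAV13-1 with TRAJ23, TRBV16-TRBJ2-7 15 aa kept TRAV21-DV12 with TRAJ42, and TRBV3-TRBJ1-3 14 aa kept TRAV7D-5 with TRAJ17. In these 4 the libraries differed at 1 base of the TRA and at 1 to 4 bases of the TRB. In TRBV5-TRBJ2-7 14 aa (b), with TRAV14-1 and TRAJ23, both chains were the same in all bases in replicates 1 and 2, on different barcodes. TRBV14-TRBJ1-1 14 aa and TRBV20-TRBJ1-1 13 aa kept the CDR3 under another V name (TRAV9-1 and TRAV9D-1, TRAV13-4-DV7 and TRAV13D-2). These TRAV genes belong to duplicated families whose copies are nearly the same, so their names are uncertain.

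The TRB of all 3 libraries was mostly found with 1 kind of TRA, but not with it alone. Its 9 cells held 7 different TRAs, and 6 of the cells had exactly 1 TRA. TRAV14N-3, TRAV15D-1-DV6D-1, TRAV6-1, TRAV7-1 and TRAV7D-5 were each found in 1 cell of replicate 2. Below, a cell is counted if any of its TRAs was of the kind named. Of the 9 cells of TRBV13-2-TRBJ2-5 12 aa (a), all with a TRA, 7 had a TRA that joined TRAV21-DV12 to TRAJ57, 1 in replicate 1, 5 in replicate 2 and 1 in replicate 3. In 5 of the 7 its CDR3 was the same in amino acids, and its sequences are printed with capitals at the differing bases.
TRA, 1 cell each of replicates 1, 2 and 3: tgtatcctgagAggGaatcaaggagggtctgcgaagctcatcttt
TRA, 1 cell of replicate 2: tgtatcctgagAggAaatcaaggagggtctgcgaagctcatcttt
TRA, 1 cell of replicate 2: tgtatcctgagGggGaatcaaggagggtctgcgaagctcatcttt
TRBV13-3-TRBJ2-7 12 aa (a), TRA of 3 cells of replicate 1: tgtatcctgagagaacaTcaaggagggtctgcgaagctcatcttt
TRBV13-3-TRBJ2-7 12 aa (a), TRA of 1 cell of replicate 3: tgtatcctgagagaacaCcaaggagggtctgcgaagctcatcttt

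The other 2 cells with this V and J differed from the 5 at residue 5 of the TRA CDR3 only. TRBV13-2-TRBJ2-5 12 aa (b), whose TRB has 3 encoding sequences, had a TRAV21-DV12 and TRAJ57 TRA in 3 of 4 cells with a TRA, 2 in replicate 2 and 1 in replicate 3, and these too differed at residue 5 only. With TRBV13-3-TRBJ2-7 12 aa (a), in which all 4 cells had one, 14 of 179 public cells with a TRA (7.82%, interval 4.34% to 12.8%) carried this V and J, every such TRA being 15 aa long. Among 4712 cells with a TRA and no public TRB, 9 did (0.191%, 0.0874% to 0.362%). It was found in 1 of 6 cells whose TRB was TRBV13-2-TRBJ2-5 12 aa but not public, and in 0 of 83 with these genes, another length and no public TRB (interval up to 4.35%). The combination was singled out after its values were seen.

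The TRBV19-TRBJ2-7 12 aa TRBs (a) to (d) had a common TRA V gene without a common J gene. TRAV8D-2 was found in 4 of 5 cells with a TRA of (a), 4 of 4 of (b), 2 of 2 of (c) and 2 of 2 of (d), or 12 of 13 cells in all (92.3%, interval 64.0% to 99.8%). By library they were 7 of 7, 4 of 5 and 1 of 1 cells. A cell was counted if any of its TRAs used TRAV8D-2, so a cell with more than 1 TRA had more chances. Exactly 1 TRA was found in 4 of 5 cells of (a), 3 of 4 of (b), 2 of 2 of (c) and 1 of 2 of (d). These TRAs had 10 different CDR3s of 11 to 15 aa and used 8 TRAJ genes, among them TRAJ40, TRAJ48, TRAJ56, TRAJ23, TRAJ52 and TRAJ50. TRAV8D-2 was in 6 of 21 cells with a TRBV19-TRBJ2-7 TRB of 12 aa that was not public (28.6%, 11.3% to 52.2%), in 0 of 82 with another length (interval up to 4.40%), in 3 of 573 with TRBV19 and another J (0.524%), in 3 of 166 with another public TRB (1.81%) and in 145 of 4712 with no public TRB (3.08%). TRBs of these genes and length were 19 in all, of which 4 (21.1%) were public, against 1.34% of all TRBs. This combination was also singled out after its values were seen.

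**Figure D5:**
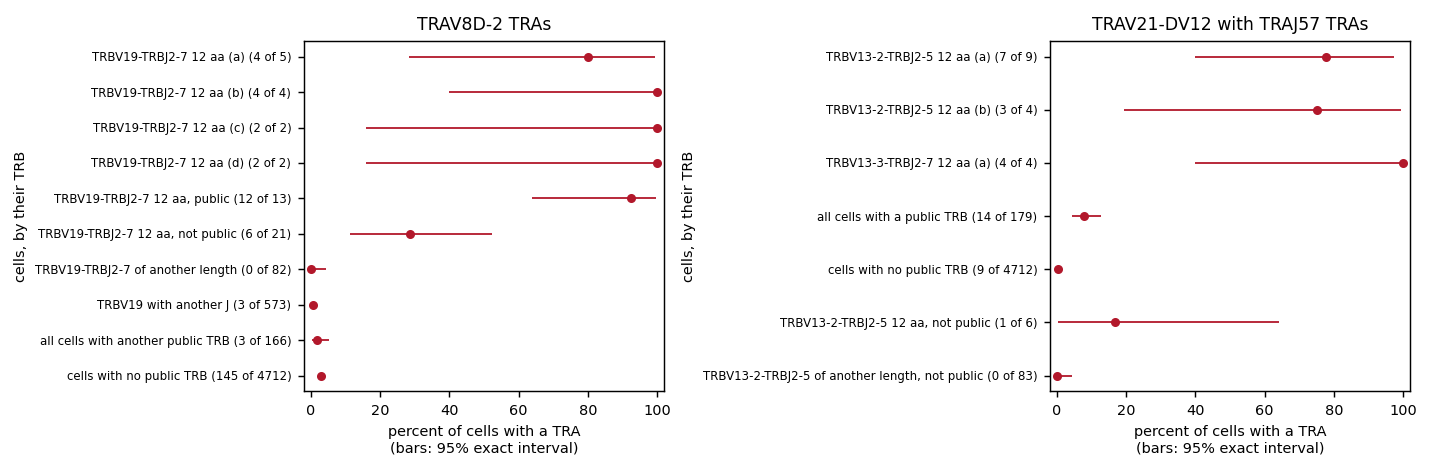
Share of cells with a TRA (horizontal axis, percent) whose TRA used TRAV8D-2 (left panel) or joined TRAV21-DV12 to TRAJ57 (right panel), by the TRB of the cell (vertical axis, with the number of cells). Points are shares and lines exact 95% intervals. On the left, public TRBV19-TRBJ2-7 12 aa TRBs reach 92.3% against 3.08% of cells with no public TRB, and on the right TRBV13-2-TRBJ2-5 12 aa (a) reaches 77.8% against 0.191%.

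Other public TRBs had partners that were not the same between mice, although some were close. TRBV19-TRBJ2-7 14 aa had TRAV5-4 with TRAJ40 in 3 cells of replicate 1, whereas its 11 cells in replicate 2 had TRAV5-4 with TRAJ48, and 10 of them also had TRAV7-4 with TRAJ40. The TRAJ40 CDR3s of the 2 libraries differed at 1 residue. TRBV5-TRBJ2-7 14 aa (a) had TRAV14-1 with TRAJ23 in 9 cells of replicate 2 and TRAV3-3 with TRAJ23 in 1 cell of replicate 1. TRBV5-TRBJ2-3 15 aa had TRAV9-4 with TRAJ28 in 7 cells of replicate 1 and 1 cell of replicate 3, with 1 different residue. Its TRAs thus kept the V and J genes, and the TRA in replicate 3 had 1 UMI. TRBV5-TRBJ1-1 13 aa (a) had 4 TRAs in 5 cells, none of the same J gene in both of its libraries, although TRAV7N-6 was used in both, with TRAJ39 in replicate 1 and TRAJ32 in replicate 2.

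Inside a library, cells of 1 TRB were compared by the share of their pairs with different TRAs, over cells with exactly 1 TRA and averaged over TRBs of at least 2 such cells. It was 12.5% over 16 public TRBs and 12.3% over 194 others in replicate 1, 50% over 9 and 12.7% over 301 in replicate 2, and 0% over 3 and over 35 in replicate 3. The difference of 12.5 ± 21.5 percentage points (SD, n = 3) came from replicate 2 (exact permutation test, p = 0.5, adjusted p = 0.6), and with public TRBs defined over replicates 1 and 3 alone it was 0.512.

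The limit of 2 libraries was not a sharp border. Just outside it, 37 of the 3686 other TRBs (1.00%) had their amino acid CDR3 in another library with another V or J gene, and 289 (7.84%) had a TRB of the same V and J with 1 different residue in another library. Just inside it were the 20 public TRBs with 1 cell in each library.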

How the data were processed

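Per the labels, CD45+ cells were sorted from perfused, collagenase-digested sciatic nerves and run on 10X Genomics 5′ immune profiling. The authors processed reads with Cell Ranger on mm10 (version not given in the sources used here) and deposited, for each contig, its V and J genes, CDR3 and counts of UMIs and reads. Consensus and clonotype files were not used.

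Contigs were kept if they were productive, of TRA or TRB, and on a called cell. The members, named items and tests were chosen with earlier results of these data known. TRBs were named if they were in all 3 libraries, among the 5 with most cells, sequences or partner TRAs, or kept their TRA. Junctions were matched to GRCm38 (mm10) segments placed by GENCODE M21, and the matching was tested on simulated junctions. TRBV10, annotated as a pseudogene, has no usable segment end there, which left 95 of 100 public and 3561 of 3697 other rearrangements. A base that equals germline by chance counts as matched. The segments are of the reference genome and not of NOD mice, so a strain difference at a segment end would count as unmatched. Within-library differences were tested over the 3 libraries by exact two-sided sign-flip permutation with Benjamini-Hochberg adjustment over 6 tests. The libraries are separate animals, and PCR copies were removed by UMIs. Alternatives were deposited V names, other TRB identities, at least 3 UMIs per chain, exactly 1 TRB, no barcode found in several libraries, and each library left out in turn. Tables were made with pandas 2.3.3 and numpy 2.4.6, intervals with scipy 1.17.1 and plots with matplotlib 3.10.9, all under Python 3.11.15.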

Additional observations from a re-analysis of the deposited data

Results flagged for a closer look

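Public TRBs also occurred on barcodes that were not called cells, which the comparisons did not use. There were 211 such barcodes in replicate 1 (3.29% of 6422 with a TRB), 25 in replicate 2 (2.52% of 991) and 12 in replicate 3 (2.24% of 536), each with a median of 1 UMI. The 25, 11 and 6 public TRBs seen there were all found in cells of the same library too, and none of the 6, 9 and 34 public TRBs that a library's cells lacked was seen on its other barcodes.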

How the results depend on the processing

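No paired analysis was possible because all 3 libraries belong to a single group, so no 2 groups share replicate numbers. Public and other TRBs were compared within each library. Of 92 alternative values, 75 were counted as the same, 15 as moved and 2 changed sign. Values of the tested measures were judged by direction alone, and the others by how far they moved. Some of the 75 therefore moved by more than the SD between libraries, such as expansion without replicate 1 at 32.2 points (main value 16.2 ± 7.52). Identity by amino acid CDR3 alone gave 4.79% of cells and a length difference of -0.682 aa, and turned the UMI difference to 0.167. Identity by nucleotides gave 0.942% of cells, 13 TRBs, -0.414 aa, -1.89 unmatched bases, 17.9 percentage points for shared TRAs, and no value for several sequences, by its construction. V names as deposited gave 14.6 points for several sequences, and cells with exactly 1 TRB gave -0.409 aa. Expansion counted by rearrangement gave 7.89 points. This count and the TRA identity by CDR3 alone were chosen after seeing the data.

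With each library left out, TRBs were public only if they were in both other libraries. The share of cells was then 1.27% (without replicate 1) to 2.73% (without replicate 3), with 7 and 35 public TRBs, and 10 remained without replicate 2. The length difference was -1.13 (without replicate 1) to -0.105 aa (without replicate 2), unmatched bases -2.83 (without replicate 1) to -1.01 (without replicate 2) and UMIs -1 (without replicate 1) to 1 (without replicate 2). In percentage points, expansion was 12.8 (without replicate 2) to 32.2 (without replicate 1), several sequences 19.9 (without replicate 3) to 48.3 (without replicate 2), different TRAs 0.512 (without replicate 2) to 23.9 (without replicate 1), a missing TRA -19.3 (without replicate 2) to -5.53 (without replicate 3) and shared TRAs 17.0 (without replicate 3) to 48.9 (without replicate 2). With 2 libraries the permutation test cannot go below p = 0.5. At 3 UMIs per chain, the value for different TRAs was 22.3 points and rests on 2 libraries. Depth limits replicate 3 most, with 23 public cells.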

Other observations

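The partner TRAs of public TRBs drew on some TRAJ genes more than those of other TRBs did, given here as values over 106 and 2949 different TRAs with no test. TRAJ57 was used by 6.60% and 2.27%, TRAJ58 by 4.72% and 1.42%, TRAJ23 by 7.55% and 4.82% and TRAJ40 by 7.55% and 4.58%. The semi-invariant TRAs of iNKT cells (TRAV11 or TRAV11D with TRAJ18) and MAIT cells (TRAV1 with TRAJ33) were found in 0 of the 206 public cells. They were in 7 (0.116%) and 17 (0.281%) of 6050 other cells. If a count of 0 is taken to allow up to 3 cells, the public share could be up to 1.46%, which is not an exact interval. Only 179 of the 206 cells had a TRA, so among these the limit is higher. A TRB of the same V and J genes with 1 different residue was found in any library for 19 of the 50 public TRBs (38%) and for 466 of the 3686 others (12.6%), and 11 such pairs had both TRBs public. TRBV19-TRBJ2-7 12 aa (a) to (d) had 7 or 8 such neighbours each.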
